A study of Mus musculus with 9 samples.

Results

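The Kruppel-like factors (KLFs) are transcription factors with zinc fingers that bind GC-rich and CACCC sequences. Their transcripts were followed for 10 members in cultured mouse cortical neurons: Klf2, Klf3, Klf4, Klf5, Klf6, Klf7, Klf9, Klf10, Klf13 and Klf15. These were taken as all array probes whose RefSeq identifier maps to 1 of the symbols, which gave 15 probes of 41174 on the array, and 10 genes of 18327 with a symbol. Of the 10 genes, 5 have 1 probe and 5 have 2 probes (Klf2, Klf3, Klf6, Klf9 and Klf15), and each probe was read on its own. All 15 probes were tested, and each was well above background on all 9 arrays.

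Neurons were taken from the cortex of C57bl/6 mouse embryos on embryonic day 15 and kept for 12 days in culture. One group was left without treatment, one received bicuculline at 25 µM for 6 h, and one received KCl at 50 mM for 6 h. Bicuculline blocks GABA-A receptors and so frees a neuronal network from inhibition, whereas raised KCl depolarises the cells directly. Each group has 3 arrays of a 1-colour Agilent design. Nothing in the labels says whether the 3 arrays of a group are separate cultures; if they are not, the p-values measure technical spread only. Markers of neurons and of astrocytes were both well above background on all 9 arrays (10 of 10 tested for each), so the cultures were not neurons alone, and fewer cells of a type and less RNA per cell cannot be told apart.

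Members of the KLF family share the DNA-binding end of the protein and differ in the rest, so that some activate and others repress the same kind of site. In the nervous system the family is best known from work on axon growth: Klf6 and Klf7 are described as promoting neurite growth, and Klf4 and Klf9 as holding it back. Several members are also fast response genes outside the brain: Klf2 and Klf4 follow fluid shear in endothelium, Klf9 and Klf15 follow steroid hormones, and Klf10 follows TGF-beta.

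The promoter sequences of 8 of the 10 genes were matched in RefSeq (GRCm38.p6), and those of 3 are printed because their transcripts moved in different ways: Klf4 rose most, Klf7 fell under both treatments, and the 2 probes of Klf2 parted. Each run is the 250 bases before the annotated start, 5′ to 3′ in the direction of the gene. Capitals mark the GC box GGGCGG and the CACCC box on either strand, which are the kind of site that KLF and SP proteins bind, and, in Klf2, a MEF2 site.
Klf4 promoter, chr4:55532476-55532725, minus strand: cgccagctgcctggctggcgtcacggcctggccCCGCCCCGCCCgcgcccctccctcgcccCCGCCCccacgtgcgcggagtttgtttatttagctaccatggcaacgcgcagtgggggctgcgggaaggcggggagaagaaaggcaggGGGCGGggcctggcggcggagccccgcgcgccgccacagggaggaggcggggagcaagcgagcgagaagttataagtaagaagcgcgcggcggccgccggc
Klf2 promoter, chr8:72318812-72319061, plus strand: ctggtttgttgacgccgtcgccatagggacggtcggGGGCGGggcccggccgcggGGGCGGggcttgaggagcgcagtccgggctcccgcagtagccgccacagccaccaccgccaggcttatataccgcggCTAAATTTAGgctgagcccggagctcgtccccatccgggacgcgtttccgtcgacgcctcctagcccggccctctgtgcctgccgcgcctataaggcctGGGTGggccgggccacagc
Klf7 promoter, chr1:64121390-64121639, minus strand: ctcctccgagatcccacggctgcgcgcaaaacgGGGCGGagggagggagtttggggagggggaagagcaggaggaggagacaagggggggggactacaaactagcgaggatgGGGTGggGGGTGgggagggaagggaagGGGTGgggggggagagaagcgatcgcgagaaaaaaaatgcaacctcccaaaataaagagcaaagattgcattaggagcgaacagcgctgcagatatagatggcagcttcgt

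The motifs were searched on both strands from 250 bases before to 50 bases after the start, in the 8 members and in all 32851 promoters of the table. Klf4 holds 4 matches to the GC box, Klf2 holds 2, and Klf7 holds 1. The GC box was found in 7 of the 8 members and in 35.7% of all promoters, and CACCC in 6 of 8 and in 57.5%. The members' windows are rich in G and C (58.3% to 76.7%, where the median of all promoters was 52.7%), which bears on how often a GC box occurs. None of the motif shares given here, that of TGACG included, was matched for G and C content. The MEF2 site of Klf2 lies 118 bases before the start; MEF2 proteins are calcium-responsive activators, and 0.557% of all promoters hold a match. The core TGACG of the cAMP response element occurs in 6 of 8 members, Klf4 and Klf2 among them, against 20.8% of all promoters. The full element TGACGTCA, which CREB binds and which contains that core, was found in 0 of 8 members and in 1.79% of all promoters. These matches describe letters in a window and are not measured sites.

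Levels below are log2 of the processed spot signal minus the array's 75th percentile, so that a level of 0 is the 75th percentile of the array, and a difference of 1 is a doubling. A probe's level depends on how well it hybridises, so no level is compared between probes. Differences were tested with limma in 1 fit over the 9 arrays and over 27781 probes, with Benjamini-Hochberg adjustment over all of them, and a probe is called at an adjusted p under 0.05. With bicuculline, 11 of the 15 KLF probes were called against control (6 higher and 5 lower), where 39.9% of all probes tested were called (17.4% higher and 22.5% lower). With KCl, 11 of 15 were called (7 higher and 4 lower), where 69.3% of all probes were (36.3% and 32.9%). Between the treatments 9 of 15 were called (7 higher with KCl and 2 lower), against 60.6% of all probes (34.6% and 26.0%). That last count was 7 after median scaling (4 higher and 3 lower), where 14094 of the 27781 probes were called. It was 6 after spike-in scaling (4 and 2), where 11362 of all probes were called. The bicuculline count was 8 after spike-in scaling (4 and 4), where 4717 of all probes were called. The share of KLF probes called was thus close to the background for KCl and for the comparison of the treatments, and above it for bicuculline.

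The median absolute log2 change of the 15 probes was 0.36 with bicuculline and 0.61 with KCl, against 0.16 and 0.35 over all probes tested. Between the treatments it was 0.22 against 0.27. A change of at least 2-fold that was also called was seen in 2 KLF probes with bicuculline (2.50% of all probes) and in 3 with KCl (10.3%), and in 1 between the treatments (4.54%). These counts use unrounded values, by which Klf7 with bicuculline and the dim Klf2 probe with KCl, each of which fell by 1.00 after rounding, lay just short. Arrays of the 2 groups compared did not overlap for 12 probes between bicuculline and control (background 54.1%), for 11 between KCl and control (73.0%) and for 10 between the treatments (67.3%).

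**Figure D1:**
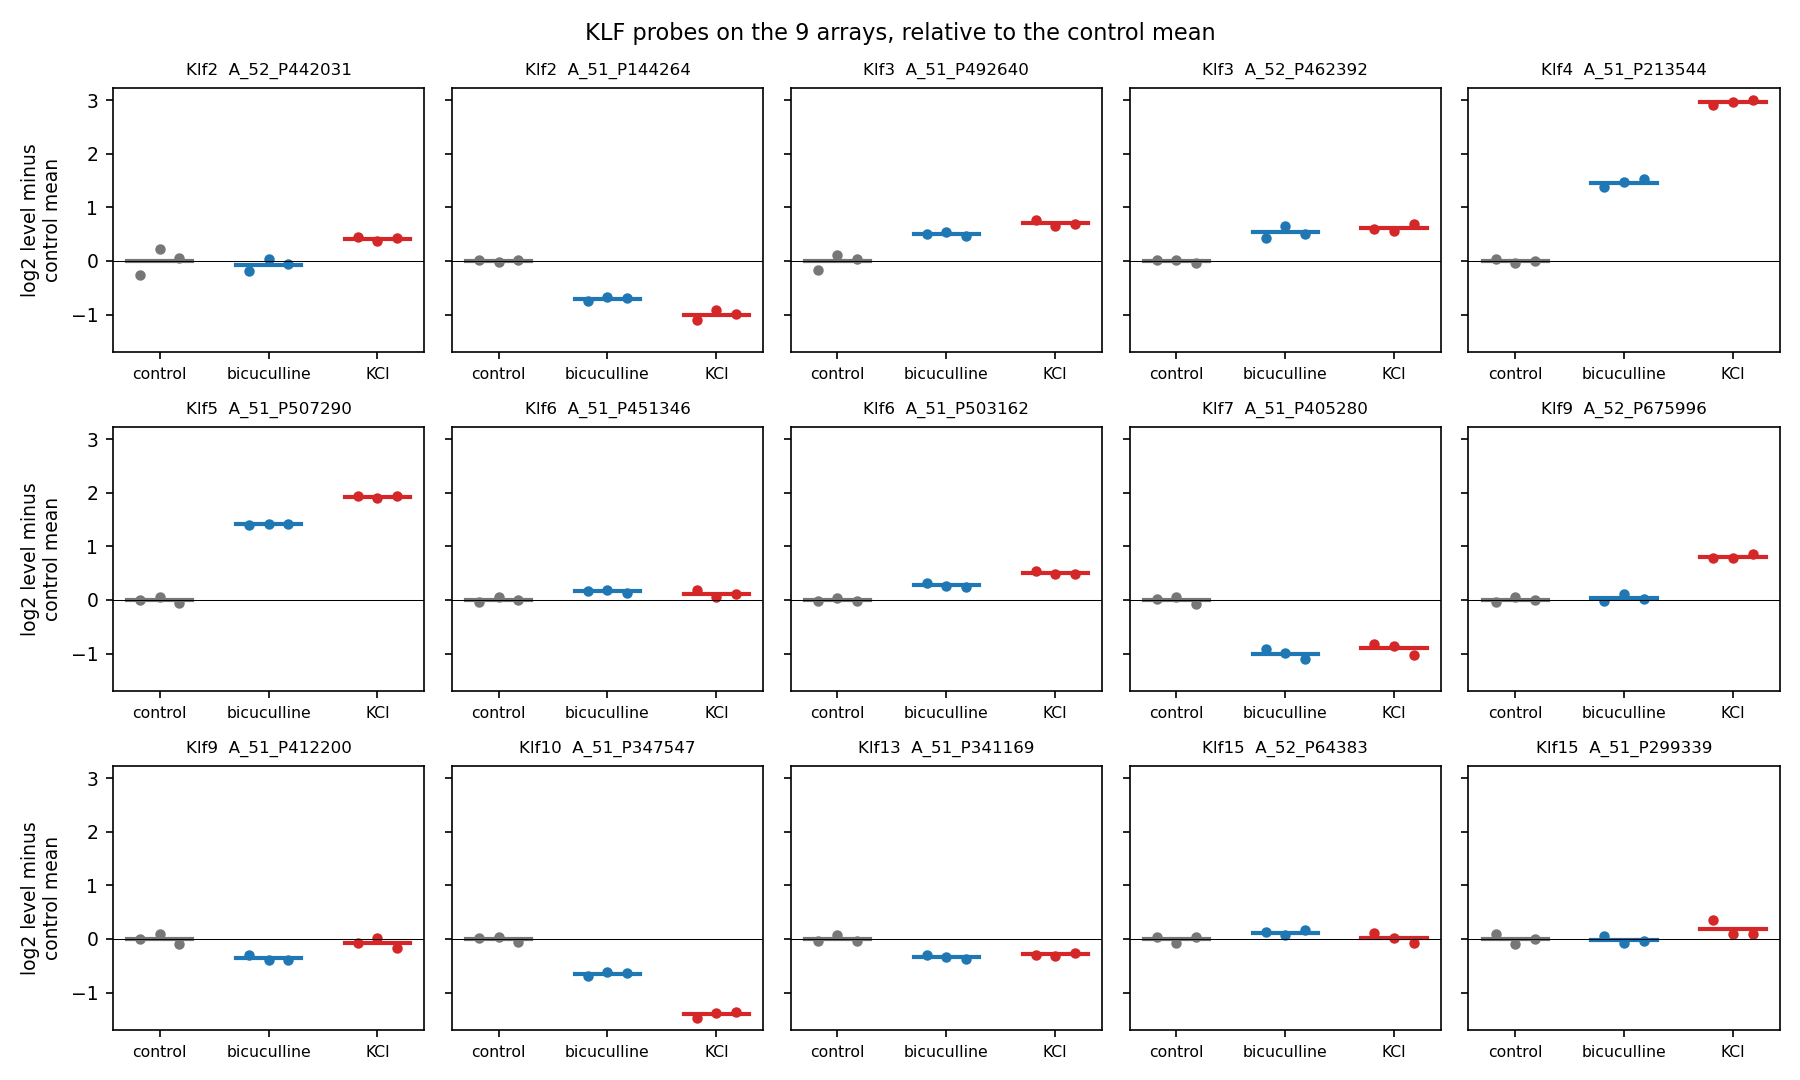
Level of each of the 15 KLF probes on the 9 arrays, as log2 level minus the mean of the probe's 3 control arrays (y axis), by group (x axis); points are arrays and bars are group means. Klf4 and Klf5 climb from control to bicuculline to KCl, Klf10 steps down, Klf7 falls to about the same level with both, and the 2 probes of Klf2 part.

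Klf4, a zinc finger factor known for its part in reprogramming cells to pluripotency and for restraining axon growth, showed the largest change of the 10 genes. Its levels were -1.24, -1.30 and -1.27 on control arrays 1 to 3, 0.10, 0.21 and 0.26 with bicuculline, and 1.64, 1.69 and 1.74 with KCl. The 3 groups did not overlap, and all 3 bicuculline arrays lay between control and KCl. Klf4 rose 2.75-fold with bicuculline (log2 1.46 ± 0.05 SE, n = 3 arrays a group, limma adjusted p 7.0e-07) and 7.77-fold with KCl (2.96 ± 0.05, limma adjusted p 7.0e-09). Among the 27781 probes tested, its absolute change ranked 309 with bicuculline and 163 with KCl. KCl exceeded bicuculline by 1.50 ± 0.05 (limma adjusted p 7.2e-07).

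Klf5, a growth-associated member that usually activates its targets, rose with both treatments. Its levels were 0.47, 0.53 and 0.41 in control, 1.87, 1.89 and 1.88 with bicuculline, and 2.40, 2.38 and 2.40 with KCl. No value of one group reached another, and the treated arrays of a group lay within 0.02 of each other. The rise was 2.65-fold with bicuculline (log2 1.41 ± 0.04, limma adjusted p 1.7e-07) and 3.79-fold with KCl (1.92 ± 0.04, limma adjusted p 1.2e-08). Bicuculline raised Klf4 and Klf5 by similar log2 amounts, whereas with KCl the change of Klf4 was the larger. The step from bicuculline to KCl was 0.52 for Klf5 (95% interval 0.43 to 0.60) and 1.50 for Klf4 (95% interval 1.38 to 1.61).

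Klf10, also called TIEG1, is an early gene of TGF-beta signalling and acts as a repressor through SIN3. It went the other way in the same graded order. Its levels were 1.22, 1.23 and 1.14 in control, 0.50, 0.58 and 0.56 with bicuculline, and -0.28, -0.19 and -0.16 with KCl. All arrays of a treatment lay below all control arrays, and KCl lay below bicuculline. Klf10 fell 1.57-fold with bicuculline (log2 -0.65 ± 0.05, limma adjusted p 2.5e-05) and 2.65-fold with KCl (-1.41 ± 0.05, limma adjusted p 1.4e-07). The difference between the treatments was -0.75 ± 0.05 (limma adjusted p 7.4e-06).

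Klf7, described in sensory and cortical neurons as a promoter of axon growth, was lower with both treatments and by a like amount. Its levels were 2.89, 2.92 and 2.78 in control, 1.94, 1.88 and 1.76 with bicuculline, and 2.05, 2.00 and 1.83 with KCl. Treated arrays all lay below the control arrays, and the bicuculline and KCl arrays overlapped. The fall was 2.00-fold with bicuculline (it fell by 1.00 on the log2 scale, SE 0.07, limma adjusted p 2.9e-05) and 1.87-fold with KCl (-0.90 ± 0.07, limma adjusted p 1.4e-05). KCl minus bicuculline was 0.10 (95% interval -0.07 to 0.27, limma adjusted p 0.26). With the slide that an array lay on as a block, that difference was 0.25 ± 0.05 (limma adjusted p 0.0090).

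The groups were spread unevenly over the slides. Controls 1 and 2 and bicuculline 1 and 2 shared slide 1, control 3, bicuculline 3 and KCl 1 and 2 shared slide 2, and KCl 3 lay alone on slide 3. Within slide 2, KCl minus control was 2.93 for Klf4, 1.98 for Klf5, -1.38 for Klf10 and -0.76 for Klf7. Bicuculline minus control was 1.42 and 1.53 for Klf4 on slides 1 and 2, 1.37 and 1.47 for Klf5, -0.69 and -0.58 for Klf10, and -0.99 and -1.02 for Klf7. All 42 within-slide values of called differences had the direction of the pooled value, and the largest gap to it was 0.14, in the Klf7 probe. With the slide as a block, 4 of the 31 calls over the 3 comparisons were lost, none of them in Klf4, Klf5, Klf7 or Klf10; KCl minus control was then 2.90 ± 0.06 for Klf4 and -0.75 ± 0.05 for Klf7.

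Klf6 and Klf3, both broadly expressed, moved up by less. Klf6 is an early gene after injury and in growing axons, and Klf3 is a repressor that works through CtBP. For Klf6, probe A_51_P503162 rose by 0.28 ± 0.04 with bicuculline (limma adjusted p 6.1e-04) and by 0.50 ± 0.04 with KCl (limma adjusted p 7.5e-06). Its levels were 2.03, 2.09 and 2.03 in control, 2.37, 2.31 and 2.30 with bicuculline, and 2.59, 2.53 and 2.54 with KCl, with no overlap. The bicuculline call was lost after spike-in scaling (0.30, limma adjusted p 0.059). The KCl call was lost with the default normexp background correction of the closing section (0.30, limma adjusted p 0.12). KCl exceeded bicuculline by 0.22 in that probe, which was 0.10 and 0.05 and not called after median and spike-in scaling (limma adjusted p 0.24 and 0.68). The other Klf6 probe, A_51_P451346, rose by 0.16 ± 0.05 with bicuculline (limma adjusted p 0.027), a call lost after median and spike-in scaling (limma adjusted p 0.24 and 0.21), with no filter on dim probes (limma adjusted p 0.064), with the replicate number as a block (limma adjusted p 0.057), with the slide as a block (limma adjusted p 0.055) and without control 1, control 3, bicuculline 1 or bicuculline 2 (0.14, 0.16, 0.16 and 0.15). With KCl it differed by 0.12 ± 0.05 and was not called (limma adjusted p 0.056); that difference was 0.14 without control 2 and 0.15 without KCl 2, both called (limma adjusted p 0.041 and 0.028), and -0.04 after median or spike-in scaling.

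For Klf3 the 2 probes gave nearly the same rise. Probe A_51_P492640 stood at -0.90, -0.62 and -0.70 in control, -0.23, -0.20 and -0.28 with bicuculline, and 0.03, -0.08 and -0.05 with KCl. Every treated array lay above every control array. The rise was 0.50 ± 0.07 with bicuculline and 0.70 ± 0.07 with KCl by that probe (limma adjusted p 0.0011 and 6.1e-05), and 0.53 ± 0.06 and 0.61 ± 0.06 by probe A_52_P462392 (limma adjusted p 3.1e-04 and 4.7e-05). KCl exceeded bicuculline by 0.20 in the first probe (limma adjusted p 0.042), which did not stay called under 14 of 22 alternative settings (0.17 to 0.23 when any array other than control 1 or control 2 was left out), and by 0.08 in the second (limma adjusted p 0.29).

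Klf13, a widely expressed member of the Klf9 group, was lower with both treatments. Its levels were 2.70, 2.81 and 2.69 in control, 2.43, 2.39 and 2.36 with bicuculline, and 2.44, 2.42 and 2.48 with KCl. Treated arrays lay below the control arrays and the treatments overlapped. The fall was 1.26-fold with bicuculline (log2 -0.34 ± 0.04, limma adjusted p 4.9e-04) and 1.22-fold with KCl (-0.28 ± 0.04, limma adjusted p 4.6e-04).

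Klf15, known as a glucocorticoid-responsive regulator of metabolism and as a marker of astrocyte responses to steroids, was called in none of the 3 comparisons by either probe with the scaling and fit used. Probe A_52_P64383 read 1.37, 1.25 and 1.36 in control, 1.45, 1.40 and 1.49 with bicuculline, and 1.43, 1.34 and 1.26 with KCl. Its change was 0.12 with bicuculline (95% interval -0.01 to 0.25) and 0.02 with KCl (95% interval -0.12 to 0.15). The dimmer probe A_51_P299339 changed by -0.02 with bicuculline (95% interval -0.21 to 0.17) and by 0.18 with KCl (95% interval -0.02 to 0.37). Those intervals leave room for small changes and not for one of the size seen in Klf4 or in Klf10 with KCl. With the replicate number as a block, the dimmer probe was called higher with KCl than in control and with bicuculline. So it was with the later normexp fit of the closing section. Its KCl change against control ran from 0.02 to 0.65 over the alternatives that left out no single array. After median scaling, probe A_52_P64383 was called lower with KCl than with bicuculline.

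**Figure D2:**
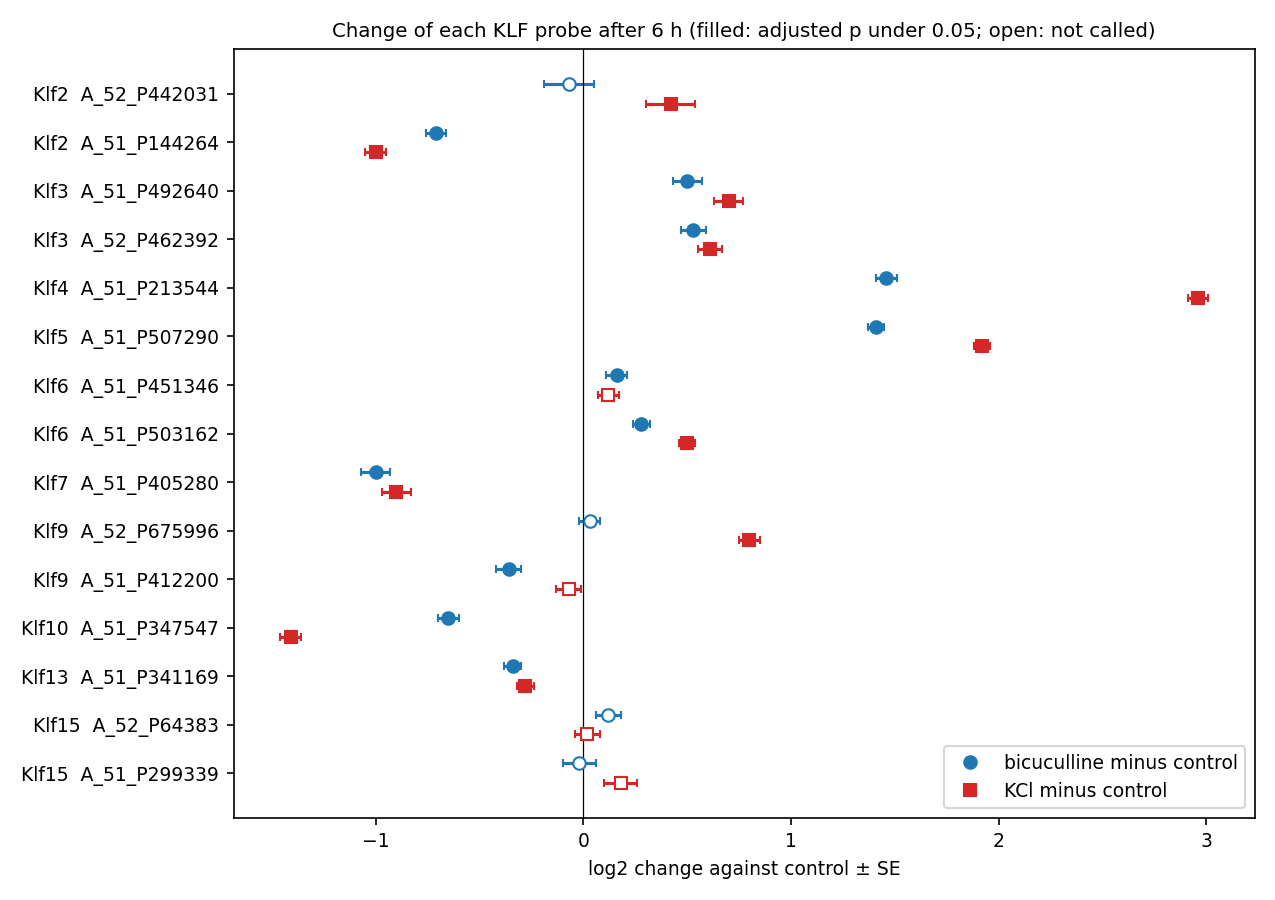
Change of each KLF probe against control in log2 ± SE (x axis), for bicuculline (circles) and KCl (squares); filled symbols are called at an adjusted p under 0.05. Klf4 reaches 2.96 and Klf10 falls to -1.41 with KCl, while the open symbols of Klf15 sit near 0.

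Klf2 and Klf9 could not be described by 1 direction, because their probes disagreed. Klf2 is a factor of quiescent endothelium and of T cells, induced through the kinases MEK5 and ERK5 and MEF2, and its promoter holds the MEF2 site shown with the sequences. Its bright probe, A_52_P442031, read 2.23, 2.72 and 2.55 in control, 2.32, 2.54 and 2.44 with bicuculline, and 2.95, 2.88 and 2.92 with KCl. KCl arrays lay above the rest, and bicuculline overlapped control. The rise with KCl was 0.42 ± 0.12 (limma adjusted p 0.013), and the bicuculline difference was -0.07 ± 0.12 (limma adjusted p 0.71). The KCl call was lost after median scaling (0.26, limma adjusted p 0.081), with the slide as a block (0.39, limma adjusted p 0.10) and with the replicate number as a block in the 6 arrays compared (0.42, limma adjusted p 0.056). KCl exceeded bicuculline by 0.48 ± 0.12 (limma adjusted p 0.0081), a call lost with the slide as a block (0.46, limma adjusted p 0.079). Default normexp background correction lost both calls (0.33 and 0.37, limma adjusted p 0.24 and 0.22).

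The dim Klf2 probe, A_51_P144264, carries the same RefSeq identifier and went down. It read -1.87, -1.90 and -1.87 in control, -2.62, -2.56 and -2.58 with bicuculline, and -2.98, -2.80 and -2.86 with KCl, with no overlap between groups. It fell by 0.71 on the log2 scale with bicuculline (SE 0.05, limma adjusted p 2.4e-05) and by 1.00 with KCl (SE 0.05, limma adjusted p 9.8e-07). Both calls were lost with default normexp background correction, at -0.64 and -0.23 (limma adjusted p 0.64 for each). Its processed signal before scaling was 212 to 234 with KCl and 482 to 843 in control. These ranges also carry differences between arrays, whose 75th percentile was 3087 on control 1 and 1586 on KCl 3. On each array the probe lay below the 75th percentile, above the median of all features and well above background. The medians were 166, 171 and 150 on the KCl arrays and 267, 157 and 245 on the control arrays. Without the probes' sequences it is not known which part of the transcript each one reads.

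Klf9, a thyroid hormone and glucocorticoid target that is induced as neurons mature, also had probes that parted, though with the scaling used they were called in opposite directions in no comparison. Probe A_52_P675996 read 1.31, 1.41 and 1.35 in control, 1.33, 1.46 and 1.38 with bicuculline, and 2.14, 2.13 and 2.21 with KCl. The KCl arrays stood apart, whereas bicuculline lay on top of control. It rose 1.74-fold with KCl (log2 0.80 ± 0.05, limma adjusted p 2.2e-06), and the bicuculline difference was 0.03 ± 0.05 (limma adjusted p 0.61). Probe A_51_P412200 read 0.93, 1.02 and 0.84 in control, 0.63, 0.53 and 0.54 with bicuculline, and 0.86, 0.95 and 0.77 with KCl. It fell with bicuculline (log2 -0.36 ± 0.06, limma adjusted p 0.0031) and was not called with KCl (-0.07 ± 0.06, limma adjusted p 0.36). After median scaling, however, probe A_51_P412200 was called lower with KCl, where probe A_52_P675996 stayed called higher. Both Klf9 probes were higher with KCl than with bicuculline, by 0.77 and 0.29 (limma adjusted p 6.8e-06 and 0.0054). The second of these was not called after median or spike-in scaling (0.17 and 0.12, limma adjusted p 0.10 and 0.38), and the fall of that probe with bicuculline was not called after spike-in scaling (-0.34, limma adjusted p 0.052).

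The disagreement can be read within each array as the difference between the 2 probes of a gene. A scaling that subtracts a single value from each array does not change it, whereas quantile normalization and background correction can. For Klf2 it was 4.38 ± 0.26 (SD, n = 3) in control, 5.02 ± 0.08 with bicuculline and 5.80 ± 0.13 with KCl. For Klf9 it was 0.43 ± 0.07 in control, 0.82 ± 0.12 with bicuculline and 1.30 ± 0.13 with KCl. For Klf6 it narrowed from 0.70 ± 0.03 to 0.58 ± 0.03 and 0.31 ± 0.04. For Klf15 it was 4.21 ± 0.04, 4.35 ± 0.08 and 4.05 ± 0.08. In these 4 genes no group overlapped another; the two-sided exact permutation p was 0.10 for each pair of groups, the smallest that 3 arrays against 3 can give. Of all 3994 genes with 2 tested probes, 14.1% had no overlap between any groups. For Klf3 the groups overlapped (0.84 ± 0.15, 0.81 ± 0.09 and 0.93 ± 0.09). Probes of a gene called in opposite directions, as for Klf2 with KCl and between the treatments, were found in 2.53% of 5299 genes with at least 2 tested probes with bicuculline, in 10.5% with KCl and in 6.96% between the treatments. For Klf2 the calls of the bright probe were not kept with the slide as a block. Genes with some probes called and others not, as for Klf9 against control, were common, at 35.5%, 34.0% and 40.7%.

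**Figure D3:**
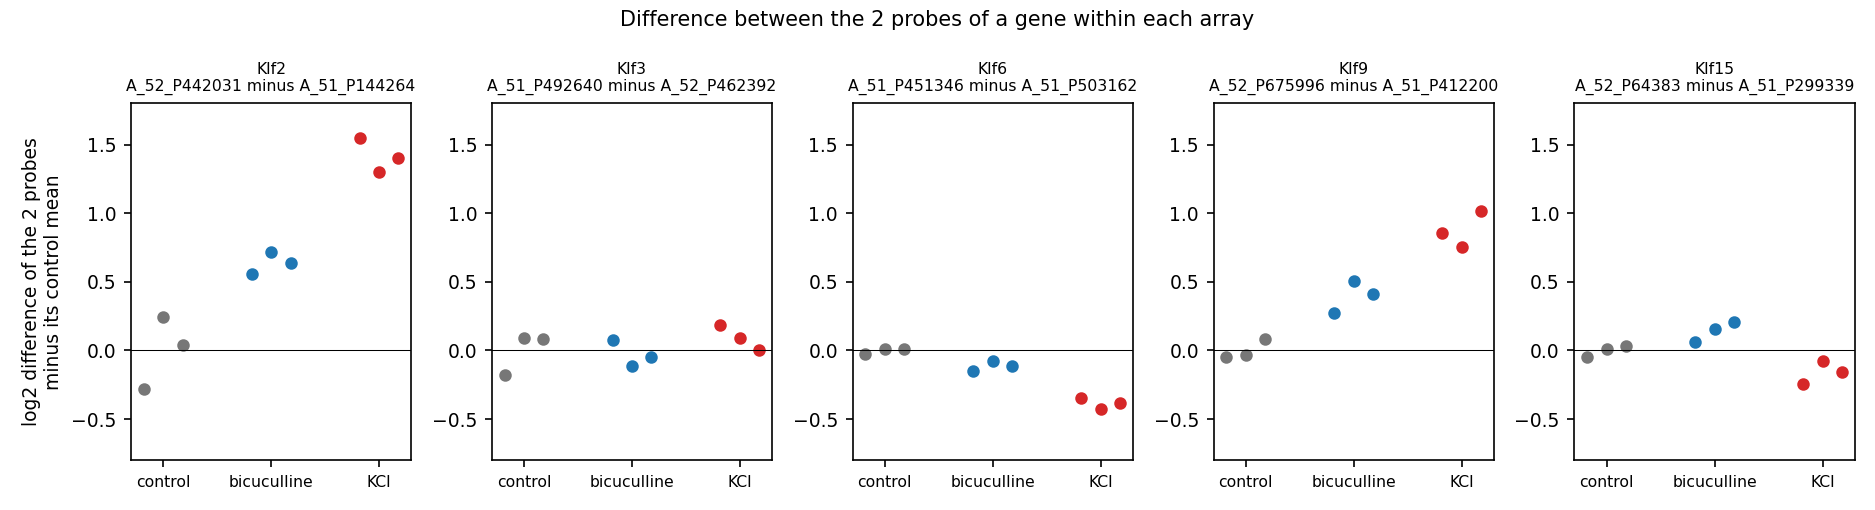
Log2 difference between the 2 probes of a gene on each array, minus its mean in control (y axis), by group (x axis); points are arrays. The probes of Klf2 and Klf9 move apart from control to bicuculline to KCl, the difference narrows in Klf6, and it stays near 0 in Klf3.

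Read as patterns over the 3 comparisons, 6 KLF probes were graded, meaning called in 1 direction with both treatments and farther from control with KCl (17.9% of all probes): Klf4, Klf5, 1 probe each of Klf3 and Klf6 upward, and Klf10 and the dim Klf2 probe downward. Another 3 probes were called the same way with both treatments and not between them (10.3% of all probes): Klf7, Klf13 and the second Klf3 probe. Of the 6 graded probes, 4 stayed so after median or spike-in scaling, which left out those of Klf3 and Klf6; with the later normexp fit of the closing section 4 stayed, without those of Klf2 and Klf3, and with the default one 2, Klf4 and Klf10. The bright Klf2 probe and 1 Klf9 probe were called with KCl and not with bicuculline, and were also called higher with KCl than with bicuculline (28.8% of all probes for this pattern in either direction), and 1 probe each of Klf6 and Klf9 with bicuculline alone (6.23%). With the slide as a block neither call of the bright Klf2 probe was kept. The remaining 2 were those of Klf15, called in no comparison (20.8%). No probe of the 10 members was called in opposite directions by the treatments (3.26%) or showed any other combination (12.8%). The comparisons with control share the same control arrays.

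How arrays are scaled matters for small changes. With the scaling used, 43.6% of all probes called with bicuculline were higher, and 59.0% after spike-in scaling. With KCl 52.5% were higher, and 35.5%, 42.1% and 36.6% after median, quantile and spike-in scaling, since the median change of all probes moved from 0.05 to -0.11, -0.05 and -0.10. For KCl minus bicuculline the shares were 57.1% against 37.0%, 44.6% and 29.7%. The direction of every called KLF difference was the same under these 3 scalings. Default normexp background correction, poorly fitted on array KCl 1, also lost the calls of Klf5 between the treatments (0.31, limma adjusted p 0.17), of Klf13 with bicuculline (-0.32, limma adjusted p 0.40) and of Klf3 probe A_52_P462392 with bicuculline (0.50, limma adjusted p 0.072). Klf6 probe A_51_P503162 lost its calls with bicuculline, with KCl and between the treatments (0.27, 0.30 and 0.03, limma adjusted p 0.40, 0.12 and 0.89). Klf9 probe A_51_P412200 lost those with bicuculline and between the treatments (-0.37 and 0.17, limma adjusted p 0.16 and 0.28). So did Klf6 probe A_51_P451346 with bicuculline (0.17, limma adjusted p 0.79) and Klf3 probe A_51_P492640 between the treatments (0.15, limma adjusted p 0.29).

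Genes whose 9 levels ran most like a member's, by Euclidean distance after centring on control, were taken for the 3 members with the largest changes among 14024 genes. Nearest to Klf4 were Dkk2, a secreted modulator of Wnt signalling (distance 0.34), Ankrd34c (0.36) and D16Ertd472e (0.37). Dkk2 changed by 1.51 with bicuculline and 2.92 with KCl. Nearest to Klf5 were Omg, a myelin-associated inhibitor of neurite growth (0.16), Plagl1, a zinc finger factor (0.25), and Rnf217, a ubiquitin ligase (0.27). Nearest to Klf10 were Lingo3 (0.13), Cradd, a death-domain adaptor (0.16), and Tbc1d30 (0.22), with Lingo3 at -0.64 and -1.41. These likenesses describe 9 arrays in 3 groups and nothing more.

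Other genes of the family were listed with the members and are counted by their brightest tested probe. Of 7 other KLF genes 5 were tested. With bicuculline 1 was higher and 4 lower, and with KCl 2 were higher and 2 lower, where 42.3% and 70.8% of 14063 genes were called. After spike-in scaling the bicuculline count was 1 higher and 0 lower. The shares of 42.3% and 70.8% are also the background for the lists that follow, which were counted in the same way. Klf14, a maternally expressed gene best known from fat tissue, changed more than any of the 10 members. Its level was -4.28 and -4.21 on controls 2 and 3, -0.17, -0.09 and -0.12 with bicuculline, and -0.45, -0.31 and -0.46 with KCl; its spot on control 1 carries an outlier mark and was left out, so n = 2 there. The rise was 17.4-fold with bicuculline (log2 4.12 ± 0.06, limma adjusted p 5.1e-08) and 14.3-fold with KCl (3.84 ± 0.06, limma adjusted p 2.2e-08). Unlike in Klf4 and Klf5, the KCl arrays lay below the bicuculline arrays.

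Klf8, a repressor that binds CtBP, was called lower with bicuculline by 1 of 2 tested probes and higher with KCl by both. Its brightest probe read -1.03, -1.06 and -0.96 in control, -1.47, -1.43 and -1.23 with bicuculline, and -0.10, -0.22 and -0.07 with KCl, without overlap. The changes were -0.36 ± 0.07 (limma adjusted p 0.0049, not called after spike-in scaling) and 0.89 ± 0.07 (limma adjusted p 1.4e-05). The dimmer Klf8 probe was at -0.20 ± 0.28 (limma adjusted p 0.62) and 1.38 ± 0.28 (limma adjusted p 0.0028). It was well above background on only 2 of 3 control and 1 of 3 bicuculline arrays. Klf16 was lower with both, at -0.31 and -0.38 (limma adjusted p 0.0022 and 3.0e-04), the first not called after spike-in scaling. Klf11, which resembles Klf10, had probes called in opposite directions with KCl, at -0.60 and 0.50 (limma adjusted p 3.0e-04 and 0.044); the rise was not called after any of the 3 other scalings, nor, at 0.41 to 0.50, without control 1, control 2, bicuculline 1, KCl 1 or KCl 2. Klf1 and Klf17, the first a factor of red blood cells, did not pass the filter on dim probes.

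The SP genes are the nearest relatives of the KLFs and bind the same boxes. Of 9 listed, 7 were tested, with 1 higher and 1 lower under bicuculline and 2 higher and 2 lower under KCl (0 lower under bicuculline after median or spike-in scaling). Over all genes 42.3% and 70.8% were called. Sp8, a factor of developing interneurons, rose by 0.86 ± 0.07 with KCl (limma adjusted p 1.9e-05). Sp7, the bone factor osterix, was at -0.82 ± 0.20 with KCl (limma adjusted p 0.0070) and was well above background on only 2 of 3 KCl arrays.

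**Figure D4:**
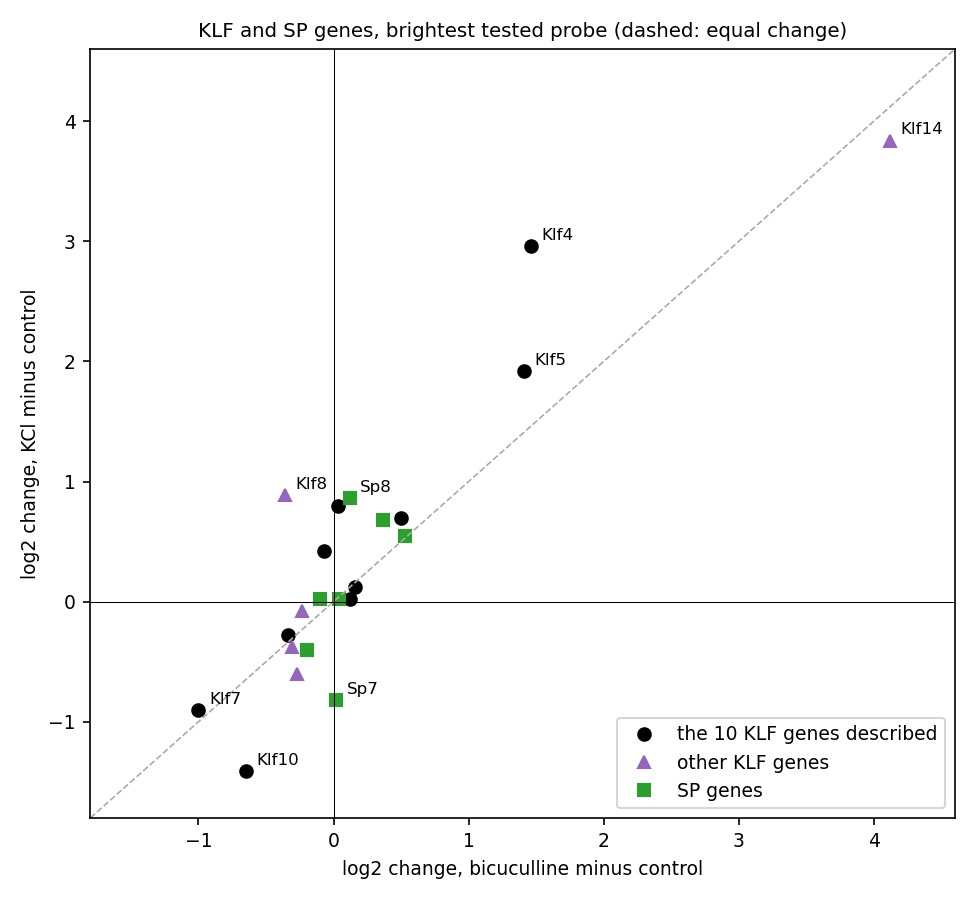
Log2 change of KLF and SP genes with bicuculline (x axis) and with KCl (y axis), each by its brightest tested probe; circles are the 10 members, triangles other KLF genes and squares SP genes, and the dashed line marks equal change. Klf14 lies at 4.12 and 3.84, Klf4 and Klf5 lie above the line, and Klf10 lies below it on the falling side.

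Proteins through which KLFs act went both ways. Of 12 tested cofactors, 1 was higher and 3 lower with bicuculline, and 5 were higher and 4 lower with KCl (median log2 change -0.08 and -0.01, against -0.03 and 0.02 over all genes). The KCl count was 3 higher and 6 lower after median or quantile scaling and 3 and 4 after spike-in scaling, where the bicuculline count was 0 and 1. Sin3b, a scaffold of the histone deacetylase complex that Klf10 and its relatives bind, had probes called in opposite directions by both treatments. Its brightest probe was at 0.28 ± 0.04 and 0.67 ± 0.04 (limma adjusted p 0.0018 and 5.2e-06; the first not called after spike-in scaling), and its other probe at -0.19 and -0.61 (limma adjusted p 0.033 and 4.0e-05). Fhl3, a cofactor of Klf3, was at 0.87 ± 0.32 with KCl (limma adjusted p 0.041), a call lost after quantile normalization and, at 0.70 to 0.98, when any control array, KCl 1 or KCl 2 was left out.

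Regulators described upstream of KLFs gave 3 higher and 7 lower of 20 tested with bicuculline, and 7 higher and 5 lower with KCl (5 higher and 6 to 9 lower after the 3 other scalings). Over all genes 42.3% and 70.8% were called. The path from MEK5 to Klf2 and Klf4 was mixed: Map2k5, which encodes MEK5, was at -0.34 and -0.47 (limma adjusted p 0.0053 and 4.5e-04), and Mapk7, which encodes ERK5, at -0.24 and -0.45 (limma adjusted p 0.0048 and 7.1e-05). Among MEF2 factors, Mef2d rose by 0.50 ± 0.12 and 0.98 ± 0.12 (limma adjusted p 0.014 and 2.0e-04), while Mef2a fell by 0.39 and 0.37 on the log2 scale (limma adjusted p 5.8e-05 and 2.2e-05). Mef2c was not called with bicuculline (-0.09 ± 0.05, limma adjusted p 0.20) and rose by 0.21 ± 0.05 with KCl (limma adjusted p 0.0049). The hormone receptors that drive Klf9 and Klf15 were also not uniform. Nr3c1, the glucocorticoid receptor, was at -0.39 and -0.69 with bicuculline and KCl (limma adjusted p 2.2e-04 and 2.6e-06). Thrb, a thyroid hormone receptor, had probes called in opposite directions: its brightest was at -0.30 and -0.72 (limma adjusted p 5.2e-04 and 1.6e-06), another at -0.38 and -0.69 (limma adjusted p 3.2e-04 and 3.7e-06), and the dimmest tested at 0.51 and 0.74 (limma adjusted p 0.0050 and 2.9e-04). After spike-in scaling the bicuculline calls of Mapk7 and of the brightest Thrb probe were lost. Nr3c2, the mineralocorticoid receptor, was at 1.39 ± 0.41 with KCl (limma adjusted p 0.018) but was well above background on only 1 of 3 control arrays, and the call was lost without control 1, control 2 or KCl 2 (1.14, 1.31 and 1.27). Wwp1, a ubiquitin ligase that targets Klf2 and Klf5 protein, rose by 0.62 ± 0.05 and 0.94 ± 0.05 (limma adjusted p 4.6e-05 and 1.3e-06).

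Genes described as KLF targets gave 5 higher and 3 lower of 15 tested with bicuculline, and 9 higher and 2 lower with KCl. Over all genes 42.3% and 70.8% were called. The median log2 change of the list was 0.02 and 0.43, against -0.03 and 0.02 over all genes. After the 3 other scalings the list's KCl median was 0.24 to 0.28, and 7 were higher. After spike-in scaling 1 was lower with bicuculline. Cdkn1a, the cell cycle inhibitor p21 that Klf4 activates, rose by 0.88 ± 0.04 and 1.29 ± 0.04 (limma adjusted p 3.0e-06 and 1.1e-07). Smad7, the TGF-beta inhibitor that Klf10 is described to repress, rose by 0.78 ± 0.05 and 1.36 ± 0.05 (limma adjusted p 1.4e-05 and 2.1e-07).

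Genes induced by glucocorticoids were listed because Klf9 and Klf15 answer to the same receptor. Of 9 tested, 4 were higher and 2 lower with bicuculline, and 5 higher and 3 lower with KCl, where 42.3% and 70.8% of all genes were called. Sgk1, a kinase, rose by 1.10 ± 0.04 and 1.62 ± 0.04 (limma adjusted p 5.3e-07 and 2.3e-08), and Errfi1, an inhibitor of EGF receptors, by 0.55 ± 0.04 and 1.56 ± 0.04 (limma adjusted p 1.5e-05 and 2.7e-08). Per1, a clock gene that CREB also drives, rose by 1.12 ± 0.05 and 1.37 ± 0.05 (limma adjusted p 2.0e-06 and 1.8e-07). Lower with KCl were Fkbp5 (-0.77, limma adjusted p 4.1e-05), Nfkbia (-0.40, limma adjusted p 5.5e-05) and Sult1a1 (-0.23, limma adjusted p 4.4e-04). With bicuculline Nfkbia and Sult1a1 were lower, at -0.25 and -0.55 (limma adjusted p 0.0021 and 1.3e-05). Only 1 gene of the list was called lower with bicuculline after spike-in scaling. Several genes of this list are also known as activity genes in neurons.

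Transcription factors known to be induced by neuronal activity served as a check of the treatments. Of 9 tested, 7 were higher and 1 lower with bicuculline, and 8 higher and 1 lower with KCl. Fosb changed most, by 4.14 ± 0.10 and 5.30 ± 0.10 (limma adjusted p 1.3e-07 and 1.3e-08), followed by Fos at 2.76 ± 0.04 and 4.47 ± 0.04 (limma adjusted p 1.0e-08 and 1.1e-09). The 1 that fell was Egr1, at -0.59 and -0.63 (limma adjusted p 1.1e-05 and 2.0e-06), chosen for naming after its values were seen.

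Since Klf2 and Klf4 are also genes of vessels and blood cells, markers of those cells are given beside them. Of 9 endothelial markers 3 passed the filter on dim probes, and Pecam1, Cdh5 and Tie1 were well above background on 0 of 9 arrays. The summed relative signal of the 3 tested was 0.419 to 0.430 in control, 0.404 to 0.413 with bicuculline and 0.586 to 0.709 with KCl. Bright probes weigh most in such a sum, here that of Kdr. Its control levels were -1.52 to -1.45, and those of Flt1 -4.54 to -4.48. With bicuculline 0 of the 3 were called. With KCl only 1 was, Kdr, at 0.67 ± 0.08 (limma adjusted p 1.1e-04), whereas Flt1 was at 0.09 (limma adjusted p 0.44). All 8 markers of mural cells and fibroblasts were tested, 0 higher and 2 lower with bicuculline and 5 higher and 1 lower with KCl, with sums of 26.0 to 27.2, 25.6 to 27.9 and 44.8 to 49.3. Of 10 microglial markers 7 were tested, 0 called with bicuculline and 3 higher with KCl, with sums of 4.07 to 4.31, 3.30 to 4.83 and 4.73 to 7.22. Astrocyte markers gave 5 lower with bicuculline and 4 higher and 3 lower with KCl (sums of 95.1 to 102, 93.3 to 96.1 and 108 to 113), and neuronal markers 1 higher and 3 lower, and 5 higher and 1 lower (145 to 153, 140 to 150 and 152 to 159). These counts moved with the scaling. With KCl, neuronal markers were 1 higher and 1 lower after median or spike-in scaling, astrocyte markers 2 higher and 4 lower, and mural markers 2 and 1 higher, each with 1 lower. After spike-in scaling 1 astrocyte marker and 0 neuronal and mural markers were lower with bicuculline, and 1 microglial marker was higher with KCl. The part of these cells in the KLF results was not tested.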

How the data were processed

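The 9 one-colour arrays hold processed signal intensity, deposited by the authors as scanner output, background-subtracted per the file headers. Those headers name Agilent Feature Extraction 10.7.3.1, the submitters' processing notes 10.5.1.1. The series' deposited values were equal to that intensity on all 45018 features. No normalization between arrays had been applied. Signals were set to log2 minus each array's 75th percentile over 43379 non-control spots (1586 to 3087), outlier spots left out and spots of a probe averaged. On 65.0% to 75.9% of spots the signal was well above background, and 0 were saturated; the number of arrays limits the precision (median replicate SD 0.075 log2). Probes were named through RefSeq identifiers (GRCm38.p6); 26888 had a symbol. Tested probes were well above background throughout 1 group or more, with 2 or more arrays measured in each. limma 3.58.1 in R 4.3.3 fitted group means, two-sided, and was tested on simulated data. The promoter table is RefSeq's.

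Same-numbered control and bicuculline arrays deviated together (r 0.34, 0.21 and 0.67), so they may be paired in that comparison. They also shared slides, and pairing by number was not separated from a shared slide. For KCl the numbers did not pair. Replicate number and slide were each used as a block among the alternatives. The members and lists were chosen with earlier results of these data known. All member probes are reported; from each list the 2 called genes with the largest change against control are named, others where a clause turns on them. Alternatives were other scalings, background corrections, filters, blocks, priors and leaving out each array. The cause of the probe disagreements was not analysed here.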

Additional observations from a re-analysis of the deposited data

How the results depend on the processing

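Of the 45 KLF differences (15 probes in 3 comparisons), 31 were called, and 16 of these stayed called under all 22 alternatives: among them those of Klf4, Klf10 and Klf7 against control and Klf5 against control. One called difference reversed: Klf2 probe A_51_P144264, KCl minus bicuculline, at 0.41 with default normexp correction. That correction also left 1029, 6112 and 3063 probes called (bicuculline against control, KCl against control and between the treatments), and 5 and 3 KLF probes called in the first and last. On array KCl 1, 13 spots far below their local background pulled its fitted background to -968.8, and without spots marked as background outliers, an alternative chosen after seeing the data, the fit gave 6.4. Of 64 calls of named genes outside the members, default normexp lost 22 and reversed 3, and spike-in scaling lost 7. Spike-in scaling left 4717 probes called with bicuculline. Differences that were not called changed sign as follows. After median scaling: Klf3 A_52_P462392 -0.05, Klf7 -0.02 and Klf13 -0.07 between the treatments, Klf6 A_51_P451346 -0.04 and Klf15 A_52_P64383 -0.14 with KCl, and Klf9 A_52_P675996 -0.00 with bicuculline. After spike-in scaling: -0.09, -0.07, -0.12, -0.04 and -0.14 for the first 5. With default normexp: Klf6 A_51_P451346 -0.05, Klf7 -0.06, Klf13 -0.15 and Klf15 A_52_P64383 -0.15. With the later normexp fit: Klf13 -0.01, Klf15 A_52_P64383 -0.05 and A_51_P299339 0.01. After quantile normalization: Klf13 -0.01. With the slide as a block: Klf9 A_51_P412200 0.04. Leaving out 1 array: Klf2 A_52_P442031 -0.20 to 0.04, Klf9 A_52_P675996 -0.00 to 0.06 and Klf15 A_51_P299339 -0.06 to 0.03 with bicuculline, and Klf15 A_52_P64383 -0.03 to 0.06 with KCl. Outside the members, default normexp gave Klf11 0.27, Sp7 0.75 and Mef2a 0.07 with KCl.

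With the replicate number as a block, 10627 probes and 10 KLF probes were called with bicuculline. For KCl, where the numbers do not pair arrays and 0 arrays were closest to their own number in both other groups, the block gave 18998 probes and 12 KLF probes against control, and 16593 and 9 between the treatments. Causes were not tested other than that of the normexp fit.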
